A study of Caenorhabditis elegans with 23 samples.

Results

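Chromosome X of Caenorhabditis elegans carries many genes that are known in the deposited gene table only by the name of the sequenced clone they lie on, such as T22B7.7, without a locus name. The genes described here are the rows on chromosome X that hold 1 gene, have such a sequence name and gathered at least 50 counts over all 23 libraries. They number 910 of the 31753 rows of the table, and of the 3630 sequence-name rows on X they are 25.1%. The comparison set is 4133 rows chosen the same way on chromosomes II to V, which are 44.97% of the 9190 sequence-name rows there. Among the X rows that were left out, 1617 had no read in any library. Around the limit of 50 counts, 27 members had 50 to 59 counts and 29 rows outside had 40 to 49. RefSeq tables of a later genome build matched 902 members, of which 180 now have a locus name, and class 867 as protein coding, 16 as pseudogenes, 11 as ncRNA and 5 as snoRNA.

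In C. elegans germ cells the X chromosome is kept largely silent by chromatin marks that the MES proteins maintain, and its genes become active mainly when oocytes form. Genes needed in sperm and in early germ cells are therefore rare on X, while many X genes act in the soma, where the dosage compensation complex lowers X expression in hermaphrodites. Messenger RNAs that are stored in oocytes depend on GLD-2, a cytoplasmic poly(A) polymerase that lengthens their poly(A) tails. The CCR4-NOT complex, whose catalytic subunits include CCF-1, shortens them.

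RNA was measured by PAT-seq, which reads the 3′ end of each polyadenylated RNA together with its tail, so that a gene's counts do not scale with its length. Sequencing run 1 compared whole young adults of 3 strains, each with 3 libraries: wild-type N2, the poly(A) polymerase mutant gld-2(q497), and YM19, whose allele cpb-3(bt17) affects an RNA-binding protein of the CPEB family. Run 2 comprised 6 RNAi groups of gld-2(q497) worms on HT115(DE3) bacteria and 1 group of N2 embryos at the stage of 1 to 2 cells, each with 2 libraries. The RNAi targets were ccf-1, ccr-4, panl-2, caf-1 and parn-1, beside pcb19, a non-targeting control. All RNAi groups, the control included, thus carry the gld-2 mutation. A protocol text names N2 for the RNAi worms, and the labels of the libraries, which name gld-2(q497), were followed. Nothing states that replicates were separate cultures, so p-values here reflect only how far these libraries differ, and that spread may be technical.

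Libraries held 2.2 to 15.95 M counts, of which 1.18 to 13.27 M were from reads with a tail. Levels are in CPM, gene counts per M counts of the library, with library sizes scaled by the TMM method over all 23 libraries. The gld-2 gene had 11.31 to 12.6 CPM in N2, 2.84 to 4.65 in gld-2 and 2.16 to 6.38 in the RNAi libraries. The cpb-3 gene had 51.6 to 57.4 CPM in N2 and 26.1 to 34.4 in cpb-3. The ccf-1 gene had 72.1 and 65.6 CPM under its RNAi against 91.3 and 73.0 in the control, a difference that did not pass the test (adjusted p = 0.92, edgeR). The panl-2, ccr-4 and parn-1 genes had more reads under their own RNAi than in the control, and caf-1 was not measured. Lower levels of the target under its own RNAi were thus not seen past the test for any of the 4 genes measured, and whether those reads came from the RNAi construct was not tested. The ccr-4 gene also had 443 and 120 CPM in the embryo libraries against 1.99 to 3.13 in N2. Tailed reads made up 85.1% of the counts of panl-2 RNAi replicate 1 and 72.2% in caf-1 RNAi replicate 2, but 53.6 to 64.7% in the other 10 RNAi libraries. The cpb-3 replicate 3 library had the lowest depth of run 1, 4.18 M counts, and the highest summed CPM of intestine markers, 68849 against 35809 and 41044 in the other cpb-3 libraries.

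X genes were expressed at a lower level than the same kind of genes on II to V in every library. The median CPM of the X genes, divided by the median CPM of the genes on II to V, was 0.84, 0.76 and 0.81 in the 3 N2 libraries and 0.74, 0.76 and 0.75 in cpb-3. In gld-2 it was 0.41, 0.49 and 0.54. The gld-2 libraries thus lay below all N2 and cpb-3 libraries without overlap. In the RNAi libraries, which are of the gld-2 strain but of another run and on other bacteria, the ratio ran from 0.56 to 0.67, and in the embryos it was 0.58 and 0.625. The gap in gld-2 came from both sides, since the median CPM was 2.26 ± 0.15 on X and 4.73 ± 0.33 on II to V in gld-2 but 3.02 ± 0.10 and 3.76 ± 0.10 in N2 (SD, n = 3). No test was made on these ratios, because the genes are not replicates. Membership rests on counts summed over all 23 libraries, 15 of them of the gld-2 strain, so genes can enter through that strain alone. In N2, 0.44% of X genes and 2.73% of those on II to V had no read, against 0.55% and 0.53% in gld-2. The medians and ratios may thus depend in part on how the genes were chosen. Over the 10 groups, 22.1% of X genes and 36.99% of those on II to V had a mean of at least 10 CPM.

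**Figure D1:**
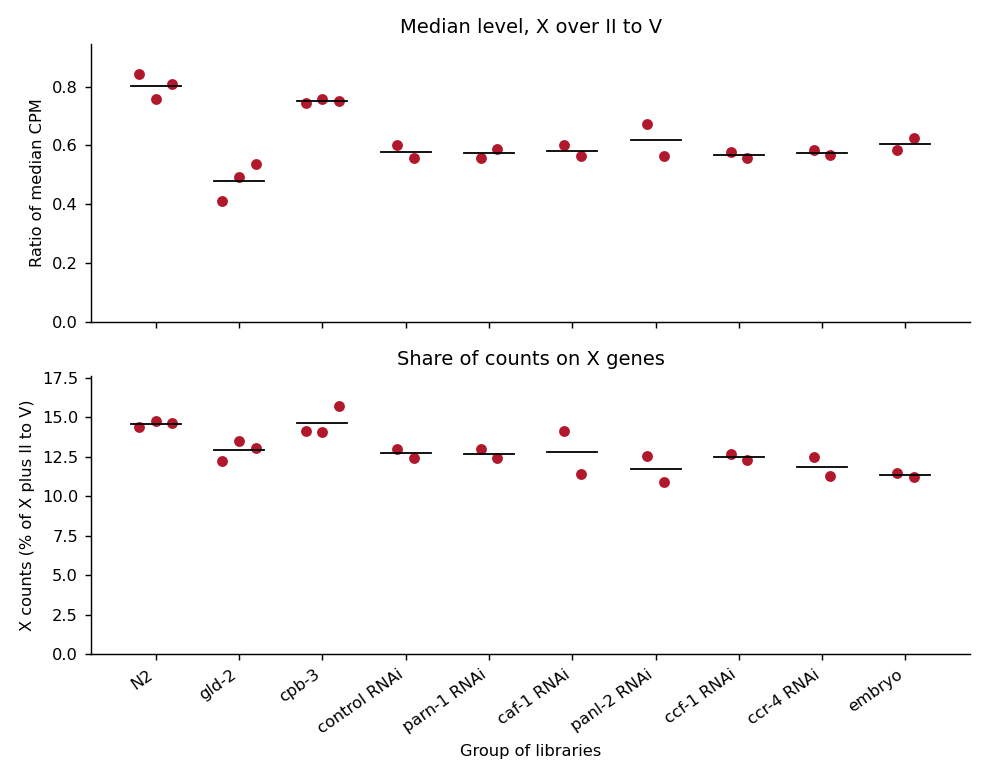
Each point is 1 library and each bar the mean of its group. The upper panel gives the ratio of the median CPM of the X genes to that of the genes on II to V, and the lower panel the X genes' share of the counts of both sets in percent. The gld-2 libraries have ratios of 0.41 to 0.54, below the 0.74 to 0.84 of N2 and cpb-3.

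Measured as a share of all counts on both sets of genes, X held 14.4, 14.8 and 14.6% in N2, 12.25, 13.48 and 13.07% in gld-2 and 14.1, 14.1 and 15.7% in cpb-3. Embryos had 11.44 and 11.199%, and the RNAi libraries ran from 10.9 to 14.1%, so that single RNAi libraries lay as low as the embryos. A few genes carry this share, since the 5 members with most counts hold 25.2% of all X counts and the 10 highest 35.3%. Without the 5 rows with most counts in each set the mean share was 12.26% in N2, 10.83% in gld-2, 12.4% in cpb-3 and 9.49% in embryos.

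The 10 most abundant members did not move together. T22B7.7 (chromosome X, 5651979 to 5653761 in the coordinates of the files, build ce10) had the highest mean level and was one of the most changed members, as given below. F46H5.3 (7230846 to 7238618) had 981, 1112 and 1000.4 CPM in N2 and 774, 858 and 979 in gld-2, and was not called (log2 change −0.23, SE 0.17, adjusted p = 0.37, edgeR). F23A7.8 (16213301 to 16213504) and F23A7.4 (16212534 to 16212740) are short neighbours whose counts may be uncertain if reads were split between alike copies. F23A7.8 had 1391, 1523 and 1508 CPM in N2 against 487, 725 and 777 in gld-2, a fall (log2 change −1.14, SE 0.30, adjusted p = 0.0096). F23A7.4 had 1315, 1442 and 1357 CPM in N2 against 398, 580 and 663 in gld-2 and fell as well (log2 change −1.31, SE 0.30, adjusted p = 0.0032). In cpb-3 the same pair varied widely, from 721 to 2019 CPM for F23A7.8 and from 786 to 2060 for F23A7.4, highest in replicate 3 in both cases. The other members of the 10 were F23D12.11, ZC373.2, ZK813.1, F08B12.4, ZK813.3 and F49E2.5. Of these, ZC373.2 had 425, 355 and 372 CPM in N2, 675, 545 and 545 in gld-2, and 754, 663 and 1272 in cpb-3.

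The comparison of gld-2 with N2 asked how X genes differ in worms whose germ cells lack GLD-2, which is required for progress through meiosis. Of 910 members 716 passed the filter on low counts, and 154 fell while 23 rose (edgeR quasi-likelihood test, Benjamini-Hochberg adjusted p under 0.05). Across all 10357 genes tested, 14.9% fell and 13.5% rose. The share of X members that fell was 21.5%, against 9.51 to 13.4% on each of II, III, IV and V. The share that rose was 3.21%, against 16.8 to 22.6% on those chromosomes. The median log2 change was −0.19 on X, 0.09 on II to V and −0.0041 over all genes. Named X genes, which have a locus name in the table, gave 158 lower and 14 higher of 669. These are counts beside each other, and the difference between chromosomes was not itself tested. Membership and the filter also use the gld-2 libraries, so the shares that rose may depend in part on that choice.

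**Figure D2:**
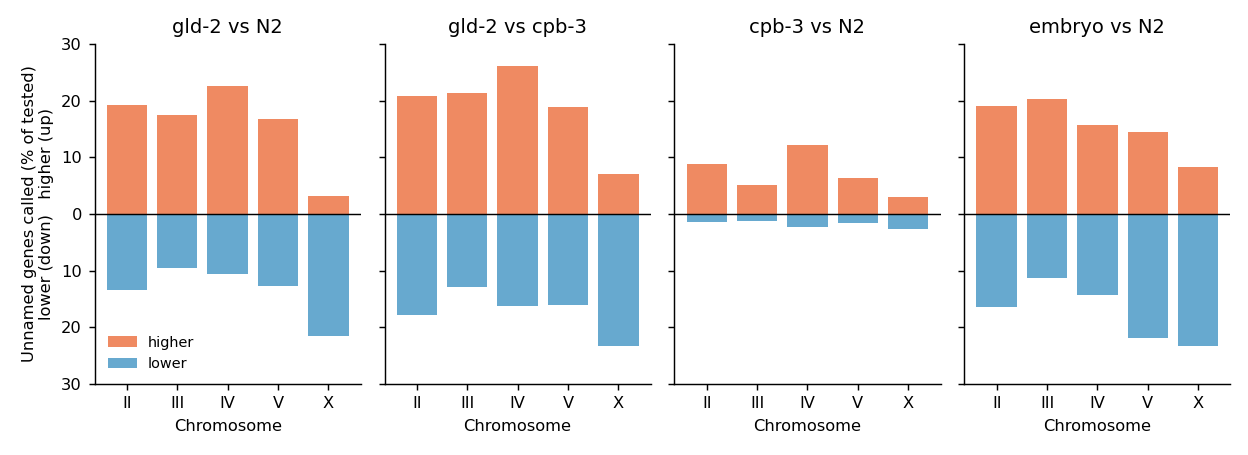
Bars above 0 give the percent of tested unnamed genes called higher and bars below 0 the percent called lower (edgeR, adjusted p under 0.05), by chromosome, for 4 comparisons. For gld-2 against N2, X has 21.5% lower and 3.21% higher, whereas II to V have 9.51 to 13.4% lower and 16.8 to 22.6% higher.

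Sperm, oocyte and early zygotic markers moved with this comparison. Genes specific to sperm, none of which lies on X, summed to 123 ± 25 CPM in N2 and 3671 ± 350 in gld-2 (SD, n = 3), and 27 of 30 tested rose. Of the 32 sperm markers with a row, 2 had no read in N2 and 0 had none in gld-2. Oocyte markers, none on X, summed to 3827 ± 63 CPM in N2 and 1660 ± 223 in gld-2, and 10 of 11 fell. Early zygotic markers, 1 of 13 on X, summed to 35.1 ± 2.1 CPM in N2 and 6.53 ± 0.34 in gld-2, and 5 of 6 tested fell. Intestine, muscle and neuron markers summed to 26010 ± 3657, 4237 ± 448 and 344 ± 16 CPM in N2 and to 21971 ± 2475, 3968 ± 723 and 301 ± 25 in gld-2. Of those tested, 1 of 8 intestine markers fell, and 0 of 8 muscle and 0 of 11 neuron markers were called. Among hypodermis markers 2 of 7 fell. The part of these shifts in the X result was not tested, and in whole worms fewer cells of a type and less RNA per cell cannot be told apart.

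At low, middle and high levels of expression, X members fell more often and rose less often than genes on II to V. With all unnamed genes sorted into 3 equal classes by mean CPM, 15.0, 20.7 and 27.7% of X members fell in the low, middle and high class, against 9.00, 8.76 and 15.2% on II to V. Shares that rose were 2.86, 2.62 and 4.62% on X and 46.0, 17.9 and 9.03% on II to V. The mean CPM used for sorting was over all 10 groups, gld-2 included, so the classes are not independent of the changes. A gene counted mainly in the gld-2 strain can fall into the low class for that reason. Along X itself the share that fell differed between sixths of the chromosome, from 13.9% of 137 members at 5.91 to 8.86 Mb to 32.0% of 122 members at 11.8 to 14.8 Mb. In the first sixth, at 0 to 2.95 Mb, 27 of 100 members fell.

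The members that fell were, as a group, present in embryos, whose libraries did not enter the fit, and in cpb-3, whose libraries shared the fit. Their median level was 9.61 CPM in embryos, against 3.46 over all 716 X members tested, and 138 of the 154 had at least 1 CPM there. In cpb-3 their median was 7.15 CPM against 4.50. The 23 members that rose had medians of 2.88 CPM in embryos, 5.27 in cpb-3 and 9.32 in control RNAi. The same held on II to V, where the 389 genes that fell had a median of 21.01 CPM in embryos, against 6.29 over all tested there, and the 629 that rose had 0.60. A gene can be called lower only if it is well counted outside gld-2, and one that rose can pass the count limits through gld-2 alone. These differences in level thus follow in part from the calls, and no set of genes matched for level was compared.

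The largest falls among members with at least 5 CPM in N2 and no overlap between groups were in genes without a known name. ZK899.6 (9463297 to 9464331) had 5.79, 8.07 and 5.16 CPM in N2 and no read in any gld-2 library. Against a floor of 3 counts over the gld-2 group, it was at least 79.8-fold lower in gld-2 (adjusted p = 1.2e-06). In the 12 RNAi libraries it had 0 to 0.97 CPM, below all N2 libraries. K04C1.5 (14248125 to 14249520) had 26.5, 20.4 and 29.3 CPM in N2 and 1.49, 1.03 and 0.16 in gld-2 (log2 change −4.58, SE 0.36, adjusted p = 1.1e-07). F53B3.5 (2873369 to 2879611) had 16.6, 15.9 and 21.4 CPM in N2 and 0.77, 0.62 and 1.73 in gld-2 (log2 change −4.27, SE 0.36, adjusted p = 2.6e-07). Every gld-2 library was far below every N2 library for these genes, and the embryos had 27.7 and 20.97 CPM of K04C1.5 but 4.69 and 12.6 of F53B3.5.

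R11.4 (16210349 to 16210546) had 6.03, 7.86 and 7.30 CPM in N2 and 0.60, 0.07 and 0.47 in gld-2 (log2 change −4.19, SE 0.53, adjusted p = 2e-05). W06D11.3 (12298623 to 12299232) had 37.9, 29.3 and 33.8 CPM in N2 and 2.44, 1.44 and 1.73 in gld-2 (log2 change −4.12, SE 0.24, adjusted p = 5.4e-09). T09B9.1 (9757259 to 9758978) had 8.92, 7.96 and 7.96 CPM in N2 and 0.72, 0.27 and 0.47 in gld-2 (log2 change −4.001, SE 0.39, adjusted p = 1.2e-06). T09B9.1 was highest in embryos, 27.4 and 32.2 CPM, and W06D11.3 had 31.1 and 46.5 CPM there, against 29.3 to 37.9 in N2. In the 12 RNAi libraries, also of the gld-2 strain, W06D11.3 ran from 1.56 to 7.94 CPM and T09B9.1 from 1.27 to 4.57, below all N2 libraries. R11.4 ran from 0.52 to 10.04 CPM there, and its 2 highest values, 10.04 in ccf-1 RNAi replicate 2 and 8.17 in ccr-4 RNAi replicate 2, lay above all N2 libraries.

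Some members that fell now have a locus name, and those given here were chosen after their values were seen. Of the 154 members with a current locus name that were tested, 22 fell and 2 rose, which is 14.3% and 1.30% and thus, for the falls, about the 14.9% of all genes. metl-9 (T03G11.6), a methyltransferase-like gene, had 13.4 CPM in N2 and 3.16 in gld-2 (log2 change −2.06, SE 0.28, adjusted p = 3.8e-05). enri-2 (T24C2.2), named for its protein's partnership with a nuclear RNAi Argonaute, had 1.70 CPM in N2 and 0.14 in gld-2 (log2 change −3.14, SE 0.67, adjusted p = 0.002), but 2.08 to 12.0 CPM in the 12 RNAi libraries of the same strain. meg-4 (C36C9.1), which encodes a germ granule protein supplied by the mother, had 5.69 and 2.86 CPM (log2 change −0.96, SE 0.27, adjusted p = 0.015). In embryos metl-9 had 27.1 CPM, enri-2 12.33 and meg-4 9.62.

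Only 23 members rose in gld-2, and 2 of them by more than all others with at least 5 CPM. T22B7.7 had 82.5, 100.04 and 75.2 CPM in N2 and 860.2, 1375 and 1226 in gld-2, a rise of 13.6-fold (log2 change 3.76, SE 0.22, adjusted p = 4.4e-09). Its level in cpb-3 was that of N2, with 93.0, 76.1 and 72.6 CPM, and in the 12 RNAi libraries it ran from 1164 to 2905. Y81B9A.2 (9184106 to 9190660) had 0.58, 1.05 and 0.15 CPM in N2 and 11.26, 8.48 and 9.61 in gld-2 (log2 change 4.14, SE 0.45, adjusted p = 3.5e-06). Both genes were thus high in all 15 libraries of the gld-2 strain and low in all 6 libraries of N2 and cpb-3 adults. Embryos had 321 and 191 CPM of T22B7.7, between the groups.

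The remaining 4 named rises were smaller. F53A9.8 (8718589 to 8718852) had 9.39, 8.38 and 11.7 CPM in N2 and 41.2, 26.8 and 25.8 in gld-2 (log2 change 1.69, SE 0.45, adjusted p = 0.0095). Y26E6A.3 (13908505 to 13909818) had 4.98, 7.54 and 6.19 CPM in N2 and 15.1, 19.9 and 20.0 in gld-2 (log2 change 1.56, SE 0.23, adjusted p = 9.1e-05). F53H4.6 (15852866 to 15860532) rose by 1.32 on the log2 scale (SE 0.26) and Y41G9A.10 (2945865 to 2946531) by 1.18 (SE 0.28). No group overlapped another for these genes between N2 and gld-2, although Y41G9A.10 ranged from 29.3 to 57.4 CPM in gld-2.

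**Figure D3:**
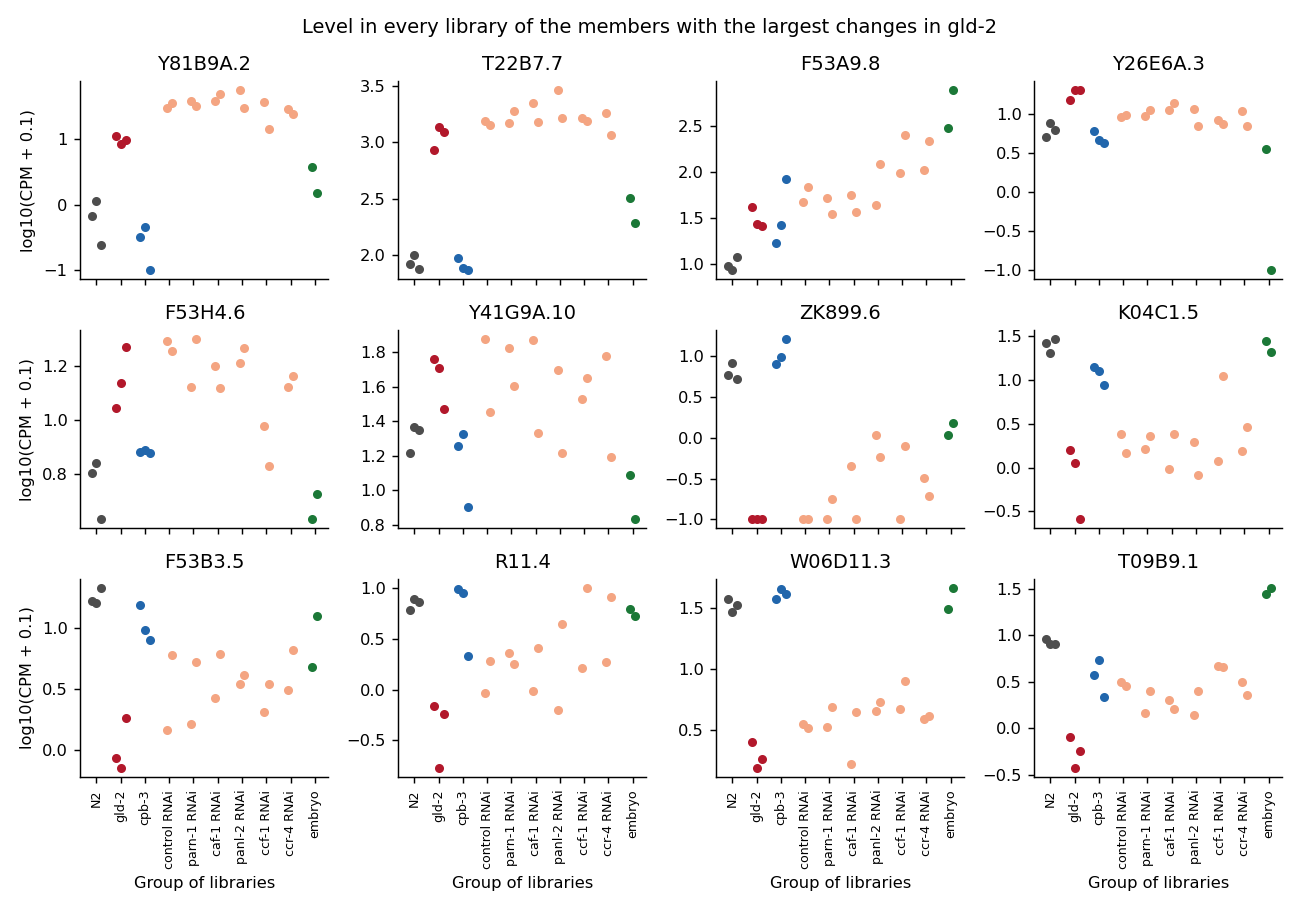
Each panel is 1 gene and each point 1 library, as log10 of CPM plus 0.1, for the 6 members that rose most and the 6 that fell most in gld-2 against N2. T22B7.7 lies at 72.6 to 100.04 CPM in N2 and cpb-3 adults and at 860.2 CPM or more in all libraries of the gld-2 strain, while ZK899.6 has no read in the 3 gld-2 libraries.

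Genes of 2 further lists were read, 1 of dosage compensation and X counting and 1 of germline X silencing and chromatin. Beside them, 14.9% of all genes were lower and 13.5% higher. Of 10 genes of dosage compensation and X counting tested, 4 fell and 1 rose. sex-1, a repressor of the sex switch gene, had 7.97 ± 0.49 CPM in N2 and 0.60 ± 0.23 in gld-2 (log2 change −3.78, SE 0.33, adjusted p = 3.4e-07). fox-1, a splicing regulator of the same switch, fell from 11.5 to 2.35 CPM (adjusted p = 2.4e-05), and sdc-2, which recruits the dosage compensation complex to X, from 3.61 to 0.72 (adjusted p = 0.00015). These 3 genes lie on X. dpy-27, a condensin-like subunit of the complex on chromosome III, fell from 21.7 to 8.58 CPM (adjusted p = 0.00073). Of 11 genes of germline X silencing and chromatin tested, met-1, efl-1 and lin-54 fell and mes-2, a subunit of the MES complex, rose from 11.9 to 19.6 CPM (log2 change 0.75, SE 0.25, adjusted p = 0.033). The 4 called of 11 are 36.4%, near the 28.5% called of all genes.

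Set against cpb-3 instead of N2, gld-2 had 167 X members lower and 50 higher of 716, while 36.4% of all genes tested were called, 19.4% lower and 17% higher. The share lower was 23.3% on X and 12.9 to 17.9% on II to V, and the share higher 6.98% on X and 18.9 to 26.2% on II to V. This comparison shares its gld-2 libraries with the last, so it is no second measurement of them. ZK899.6 had 7.96, 9.81 and 16.2 CPM in cpb-3 and was at least 142.4-fold lower in gld-2 (adjusted p = 7.1e-07). K08H2.2 (13234209 to 13234888) had 3.49, 2.65 and 11.203 CPM in cpb-3 and 0.12, 0 and 0 in gld-2 (log2 change −6.29, SE 0.92, adjusted p = 9.7e-05). W06D11.3 had 37.3, 45.4 and 41.5 CPM in cpb-3 (log2 change −4.44, SE 0.25, adjusted p = 9.5e-09), where N2 had 29.3 to 37.9.

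The cpb-3 mutant differed from N2 in few X genes. There 21 members rose and 19 fell of 716, against 8.78% called of all 10357 genes tested (7.09% higher and 1.69% lower). On X 2.93% rose and 2.65% fell, and on II to V 5.13 to 12.2% rose and 1.25 to 2.33% fell. In the high class of level 8.21% of X members and 6.81% of genes on II to V rose. Without cpb-3 replicate 1 the count of called members was 67, and without N2 replicate 1, 2 or 3 it was 23, 16 and 9, so the count rests on single libraries. Sperm markers, of which 29 of 30 rose here, summed to 1489 ± 430 CPM in cpb-3 (SD, n = 3), and oocyte markers, of which 1 of 11 rose, to 4640 ± 89. Intestine markers, of which 3 of 8 rose, summed to 48567 ± 17758 CPM and hypodermis markers, of which 4 of 7 rose, to 13676 ± 3551, against 26010 ± 3657 and 8771 ± 392 in N2. The part of these shifts in the X result was not tested.

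Several of the rises in cpb-3 were in short rows on X. F59C12.4 (16602400 to 16602549) had 88.7, 57.7 and 62.96 CPM in N2 and 165, 155 and 406 in cpb-3 (log2 change 1.84, SE 0.32, adjusted p = 0.0022). C45B2.2 (6084718 to 6085066) had 2.202, 3.35 and 2.29 CPM in N2 and 5.45, 9.45 and 11.203 in cpb-3 (log2 change 1.71, SE 0.33, adjusted p = 0.0045). T23F2.3 (5512050 to 5512269) had 17.2, 16.9 and 14.6 CPM in N2 and 30.1, 35.9 and 73.4 in cpb-3 (log2 change 1.52, SE 0.29, adjusted p = 0.0043). In each of these the cpb-3 replicate 3 library was the highest. F53A9.8, F53A9.6 and F39C12.1 also rose, by 2.07, 1.45 and 1.41 on the log2 scale (SE 0.46, 0.33 and 0.38). The calls of F53A9.8 and F39C12.1 were lost, with the opposite sign, when only tailed reads were counted.

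Among the falls in cpb-3, R04D3.2 (13285198 to 13286561) had 15.0, 12.5 and 11.6 CPM in N2 and 3.60, 5.15 and 1.66 in cpb-3 (log2 change −1.72, SE 0.35, adjusted p = 0.0069). It had 1.67, 0.55 and 0.63 CPM in gld-2 and 25.7 and 29.1 in embryos, so that embryos were highest, N2 next and cpb-3 and gld-2 lowest. The lowest cpb-3 library, replicate 3, was level with the highest gld-2 library. C55B6.1, ZC53.1, C29F7.2, F59C12.3 and F18H3.1 fell by 1.54, 1.22, 1.15, 1.11 and 1.11 on the log2 scale (SE 0.35, 0.27, 0.24, 0.31 and 0.30). F59C12.3 kept its call in 3 of 11 other settings and F18H3.1 in 5 of 11.

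Embryos were compared with N2 adults to see which X transcripts an egg carries at its first divisions. Of 668 members tested 156 were lower and 55 higher, against 18.3% lower and 16.1% higher of all 9343 genes tested. The shares on X were 23.4% lower and 8.23% higher, and on II to V they ranged from 11.37 to 21.9% lower and from 14.4 to 20.3% higher. The median log2 change was −0.49 on X and −0.06 on II to V, with −0.11 over all genes. No read was found in either embryo library for 156 of the 910 members, or 17.1%, against 18.5% on II to V. Without N2 replicate 1, 2 or 3 the called members were 106, 90 and 82, and without embryo replicate 1 or 2, where the lone embryo library is assumed to vary like N2, they were 315 and 322.

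The embryo libraries were made in run 2 and N2 in run 1, so that stage and run cannot be told apart. Markers of adult tissues were present in the embryo libraries, with summed levels of 23732 ± 2177 CPM for intestine, 2037 ± 158 for muscle and 5406 ± 723 for hypodermis (SD, n = 2). Their part in the result was not tested. Control RNAi of run 2 and gld-2 of run 1, the same strain, were compared with 0.5 CPM added to each mean. Of the 55 members higher in embryos, 51 were also higher in control RNAi than in gld-2, against 359 of all 668. The difference exceeded 1 on the log2 scale for 25 of the 55 (45.5%, against 14.1% of all 668). On II to V, 399 of the 491 genes higher in embryos were higher in control RNAi, against 1482 of all 2838. There 29.9% of the 491 exceeded 1, against 10.7% of all. None of these control RNAi and gld-2 libraries entered the embryo comparison.

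F53A9.8 was the member with the largest rise in embryos, at 297 and 775 CPM against 8.38 to 11.7 in N2 (log2 change 5.75, SE 0.37, adjusted p = 7.4e-05). It ran from 34.3 to 254 CPM in the RNAi libraries. C15B12.8 (6474237 to 6476486) had 17.3 and 8.10 CPM in embryos and 0.23 to 1.15 in N2 (log2 change 4.06, SE 0.59, adjusted p = 0.0012), but it had 8.50 to 93.9 CPM in the RNAi libraries and at most 0.30 in gld-2 of run 1. T23E7.6 (17680835 to 17682218) had 5.68 and 36.7 CPM in embryos and 0.96 to 1.57 in N2 (log2 change 4.07, SE 0.67, adjusted p = 0.0023). C53C11.2, enri-2 (T24C2.2) and R07E4.5 rose by 2.87, 2.86 and 2.66 on the log2 scale (SE 0.42, 0.39 and 0.24), and each was also detected in all 12 RNAi libraries. R07E4.5 had 41.002 and 47.4 CPM in embryos, 6.37, 8.59 and 5.97 in N2 and 2.14, 1.16 and 2.21 in gld-2 of run 1. Its RNAi libraries ran from 3.07 to 34.8 CPM.

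In the low, middle and high class of level, 26.7, 19.4 and 29.1% of X members were lower in embryos. On II to V these shares were 25.7, 18.2 and 13.5%. The 6 largest falls among members with at least 5 CPM in N2 and no overlap between groups are given here. C45B2.8 (6088035 to 6088328) had 5.56, 6.28 and 6.12 CPM in N2 and no read in embryos, which is at least 16.5-fold lower against a floor of 3 counts over both embryo libraries (adjusted p = 0.0011). T21B6.3 (10945401 to 10948836) had 9.04, 9.01 and 7.45 CPM in N2 and 0.49 and 0.24 in embryos (log2 change −4.48, SE 0.57, adjusted p = 0.00067). F14B8.5 (6925226 to 6928608) had 9.27, 9.32 and 8.48 CPM in N2 and 0.74 and 0.48 in embryos (log2 change −3.86, SE 0.49, adjusted p = 0.00069). C09B8.4, M163.8 and marg-1 (F47B7.7) fell by 5.19, 4.23 and 4.16 on the log2 scale (SE 0.93, 0.73 and 0.55). T21B6.3 and F14B8.5 had 5.96 to 8.28 and 8.94 to 13.1 CPM in gld-2 adults.

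Of the 145 tested members with a current locus name, 35 fell and 7 rose in embryos, which is 24.1% and 4.83%, beside 18.3% and 16.1% of all genes, and the following were chosen after their values were seen. nlp-49 (H05L03.3), a neuropeptide-like gene, had 146 CPM in N2 and 11.5 in embryos (log2 change −3.68, SE 0.27). irg-7 (F40F4.6), a gene of the infection response, had 93.5 and 39.3 CPM (log2 change −1.25, SE 0.19). The zinc transporter gene zipt-13 (C14H10.1) fell from 50.9 to 17.7 CPM, and the V-ATPase gene vha-20 (R03E1.2) from 57.7 to 37.6.

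RNAi against the 5 deadenylase genes changed the level of no X member past the test in the gld-2 strain. Of 670 members tested, 0 were called in each of the 5 comparisons, and 0% of all 9908 genes (edgeR). At an unadjusted p under 0.05 there were 12 members for parn-1, 9 for caf-1, 85 for panl-2, 37 for ccf-1 and 19 for ccr-4. DESeq2 called 6 members for panl-2, 1 for ccf-1 and 0 for the others. With 2 libraries a group, these counts do not show that the levels were equal. For ccf-1 RNAi the median log2 change was −0.08 on X and 0.02 on II to V.

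Poly(A) tails were measured as the mean length in nucleotides (nt) of a gene's tailed reads in a library. In N2, 468 members had at least 20 tailed reads in each library, with a median tail of 38.8 nt and with 10% of members under 31.5 nt and 10% over 47.7 nt. The shortest were C16H3.3 (17601901 to 17609968) with 12.5 ± 1.7 nt, the snoRNA C14E2.12 (1831625 to 1831756) with 16.2 ± 0.7 and the ncRNA F19C6.11 (9999547 to 9999718) with 17.5 ± 0.3 (SD, n = 3). The longest were kreg-1 (F53A9.2, 8709712 to 8709963) with 66.0 ± 5.4 nt, F38E9.1 with 62.3 ± 5.9 and H40L08.2 with 59.4 ± 11.27. F53A9.2 lies beside F53A9.6 and F53A9.8, which were described above for their levels.

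Over 275 X members and 1629 genes on II to V that had at least 5 tailed reads in every library, X tails were longer in 22 of 23 libraries. The median X tail was 38.1, 36.8 and 39.8 nt in N2, which is 1.62, 1.76 and 2.59 nt above that of II to V. In gld-2 the X tail was 36.3, 34.7 and 40.8 nt, and the gap 4.14, 2.49 and 5.303 nt. In ccf-1 RNAi the gap was 1.51 nt in replicate 1 and −1.51 in replicate 2, the single library where X was shorter. In the control RNAi libraries it was 2.76 and 4.31 nt.

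**Figure D4:**
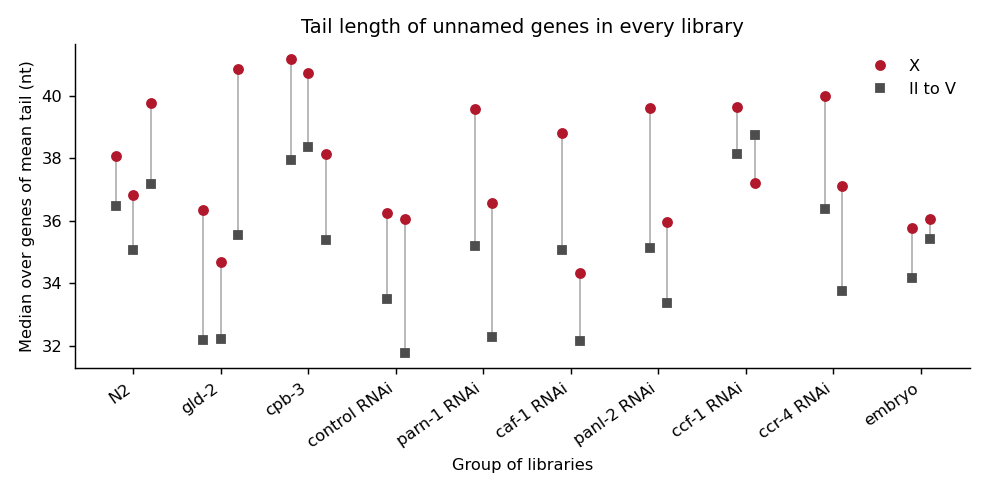
For each library the circle gives the median, over 275 X genes, of the mean tail length in nt, and the square the same over 1629 genes on II to V, joined by a line. X lies above II to V in 22 of 23 libraries, and below it in ccf-1 RNAi replicate 2.

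Few X genes differed in tail length between gld-2 and N2. Of 462 members tested 12 had a shorter and 1 a longer tail in the mutant (limma, adjusted p under 0.05), against 8.67% shorter and 0.185% longer of all 7564 genes tested. On X 2.60% were shorter and on II to V 6.17 to 8.25%. The median change was −0.69 nt on X and −2.14 nt on II to V, and the difference was not tested. Among members in the high class of level the median change was −0.87 nt on X and −2.61 nt on II to V. Without N2 replicate 1, 2 or 3 the called members were 3, 8 and 2, and without gld-2 replicate 1, 2 or 3 they were 5, 4 and 11. With lengths centred on the median of each library 4 were shorter and 3 longer.

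C49F5.3 (11982723 to 11983831) had tails of 46.5, 44.2 and 49.7 nt in N2 and 31.3, 25.8 and 26.9 in gld-2 (change −18.80 nt, SE 3.43, adjusted p = 0.012). T20F7.1 (16872853 to 16877969) had 41.4, 39.3 and 43.2 nt in N2 and 25.5, 25.95 and 27.2 in gld-2 (change −15.08 nt, SE 2.04, adjusted p = 0.0048). R04D3.3 (13289068 to 13290554) had 42.0, 38.3 and 41.6 nt in N2 and 28.6, 22.6 and 32.3 in gld-2 (change −12.81 nt, SE 2.74, adjusted p = 0.021). In level these genes differed, since T20F7.1 had 61.8 to 67.8 CPM in N2 and 53.5 to 86.8 in gld-2, while R04D3.3 dropped from 58.1 to 3.62 CPM (adjusted p = 1.3e-08). F52H2.1 (2572856 to 2576595) was shorter by 12.43 nt (SE 2.74, adjusted p = 0.027). The other 8 were R09F10.3, C27C12.1, F19H6.4, C17H11.2, B0416.4, C31E10.5, T10B10.3 and Y73B3A.1, with changes from −11.75 to −5.61 nt. F18E9.4 (8580619 to 8583373), the 1 member with a longer tail, had 35.8, 38.6 and 31.1 nt in N2 and 46.2, 43.6 and 49.1 in gld-2, each from 16 to 37 tailed reads, and its call held in 3 of 10 other settings.

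Against cpb-3, 23 of 419 members had a shorter tail in gld-2 and 0 a longer one (limma), while 17% of all 7211 genes tested were shorter. On X this is 5.49%, and on II to V 14.2 to 17.3%. T20F7.1 was shorter by 19.09 nt (SE 2.03, adjusted p = 0.0014). flwr-1 (F20D1.1, 14969209 to 14970182), the homologue of the synaptic vesicle gene Flower, had 64.9, 59.1 and 57.2 nt in cpb-3 and 39.1, 38.9 and 43.3 in gld-2 (change −19.94 nt, SE 4.20, adjusted p = 0.012). Without gld-2 replicate 1 or 2 the called members were 7 and 6. With centred lengths, which take out the shift common to all genes, 6 were shorter and 16 longer.

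No member passed the test of tail length between cpb-3 and N2, of 448 tested, or between embryos and N2, of 261 tested (limma). Over all genes 0 of 7300 and 0 of 5447 passed, which is 0% in both. At an unadjusted p under 0.05 there were 33 members for cpb-3 and 73 for embryos, of which 27 and 19 had longer tails. Members past the adjusted threshold for embryos were 85 without embryo replicate 1 and 75 without replicate 2. Those fits have 1 embryo library, which is assumed to vary like N2.

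RNAi against ccf-1 was followed by longer tails in part of the X genes. Of 271 members tested 20 had a longer and 0 a shorter tail than in control RNAi (limma), against 17.7% longer of all 5830 genes tested. On X 7.38% were longer, and on II to V 13.8 to 20.3%. The median change was 2.11 nt on X, 5.36 nt on II to V and 5.47 nt over all genes, and the difference between X and II to V was not tested. In the middle class of level the medians were 4.09 nt on X (82 members) and 3.51 nt on II to V, and in the high class 1.84 nt on X (189 members) and 5.68 nt on II to V. The count of called members was 12 without replicate 1 of either group and 0 without replicate 2 of either group. With lengths centred on each library's median, which takes out the common shift, it was 0. Control replicate 2 is the library of lowest depth, and oocyte markers summed to 1794 ± 15 CPM in control RNAi and 2398 ± 241 in ccf-1 RNAi (SD, n = 2), whose part in the result was not tested.

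F47G3.3 (2375990 to 2378645) had 37.9 and 20.1 nt in control RNAi and 56.8 and 49.1 in ccf-1 RNAi (change 23.96 nt, SE 5.54, adjusted p = 0.023), from 7 to 34 tailed reads per library. metl-9 (T03G11.6, 5177669 to 5179083) had 26.4 and 16.2 nt in control RNAi and 47.1 and 42.4 in ccf-1 RNAi (change 23.47 nt, SE 6.01, adjusted p = 0.028). The groups did not overlap in either gene. flwr-1 was longer by 20.21 nt (SE 3.57, adjusted p = 0.015), at 58.5 nt against 38.3, and pks-1 (C41A3.1), a polyketide synthase gene, by 17.56 nt (SE 4.49, adjusted p = 0.028), both chosen after their values were seen. The smallest change among the 20 was 7.38 nt, in T10B10.3.

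**Figure D5:**
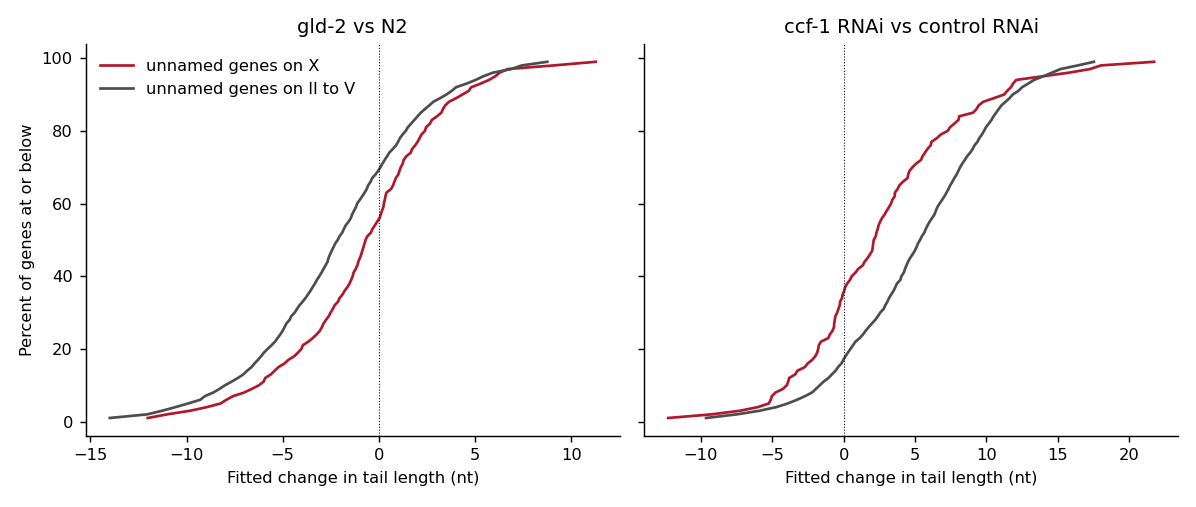
Cumulative percent of unnamed genes by fitted change in tail length in nt, for X and for II to V, drawn at the 1st to 99th percentiles. For gld-2 against N2 the X curve lies to the right (median −0.69 against −2.14 nt), and for ccf-1 RNAi against control RNAi to the left (2.11 against 5.36 nt) until the curves meet near the 95th percentile (13.9 and 14.0 nt).

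The gld-2 and ccf-1 comparisons share no library, so their changes can be set beside each other. Of the 12 X members with a shorter tail in gld-2, 10 were measured under ccf-1 RNAi. Their median change there was 9.59 nt. All 10 were longer in direction, as were 171 of the 266 X members measured in both, and 3 passed the test (30%, against 7.14% of the 266). These 3 were C49F5.3, F19H6.4 and T10B10.3. With centred lengths 0 X members were called under ccf-1 RNAi, so these calls do not hold there. C49F5.3 had 43.8 and 27.5 nt in control RNAi and 52.5 and 62.4 in ccf-1 RNAi. On II to V, 94 of the 156 such genes passed (60.3%, against 17.8% of the 1676 measured in both). Over the 266 X genes the changes of the 2 comparisons had a Pearson correlation of −0.25 and a Spearman correlation of −0.24, a description only, since genes share libraries.

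Split by level instead, the 65 X members that fell in gld-2 and were measured under ccf-1 RNAi had a median tail change of 5.04 nt, and 10 of them (15.4%) were longer past the test. The 192 members that were not called in level had a median of 1.62 nt, with 10 longer (5.21%). The 13 that rose had a median of −0.26 nt, with 0 longer. On II to V the medians were 5.68 nt for genes that fell, 5.45 for those not called and 4.31 for those that rose. The gap between X and II to V was thus 0.64 nt among genes that fell in gld-2, 3.82 nt among those not called and 4.57 nt among those that rose. Whether these gaps differ was not tested.

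For the other 4 RNAi groups no X member passed the test of tail length (limma), of 285 to 288 tested. Over all genes tested 0% passed for parn-1, caf-1 and ccr-4, and 0.0169% for panl-2. Unadjusted p fell under 0.05 in 18 members for parn-1, 23 for caf-1, 30 for panl-2 and 28 for ccr-4. The median change on X was 1.35, 1.22, 1.51 and 2.64 nt, and on II to V 0.97, 0.74, 1.06 and 2.23 nt.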

How the data were processed

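Poly(A)-tail sequencing (PAT-seq) was read in 23 libraries of 10 groups. Deposited values were the authors' whole-number read counts per gene, counts of reads with a tail, and mean tail lengths in nucleotides on build ce10. Bowtie2 2.2.4 and Bowtie are named, per the submitters' processing notes, while no source used here names the tail caller. Libraries held 2.20 to 15.95 M counts, so rare genes are imprecise. The members, lists and tests were chosen with earlier results of these data known. Counts were tested in R 4.3.3 with edgeR 4.0.16 (quasi-likelihood, TMM scaling, a filter on low counts), and tail lengths with limma 3.58.1 over values from at least 5 tailed reads, for genes with a mean of at least 20 in each group, both over all genes and adjusted by Benjamini-Hochberg, with calls at 0.05. The 9 libraries of run 1 shared a fit, as did the 12 RNAi libraries, and embryos were fitted with N2 alone. Scripts were tested on simulated data. Genes named for their level passed the test, had groups that did not overlap and had at least 5 CPM in the higher group. They were those of largest change, 6 each way for gld-2, cpb-3 and embryos against N2 and fewer elsewhere. For tails fewer genes were taken, without the limit on CPM. Some genes with a current locus name were chosen after their values were seen, as stated above, without these rules. The 10 highest members and the 3 longest and shortest N2 tails were added. Alternatives were DESeq2 1.42.0, no filter, tailed reads only, other limits on tailed reads, centred lengths, a replicate block and leaving out each library. No sequence is shown.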

Additional observations from a re-analysis of the deposited data

How the results depend on the processing

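Of the named results, 484 values under other settings kept their direction and their side of the threshold, 57 lost the call and 2 changed sign. The last were F53A9.8 and F39C12.1 in cpb-3 against N2, at −0.17 and −0.14 on the log2 scale when only tailed reads were counted. The cause was not tested.

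Called X members in expression for cpb-3 against N2 were 66 without the low-count filter, 16 with tailed reads and 9 to 67 with 1 library left out. For embryos against N2 they were 82 to 322 with 1 library left out, and the X minus II to V median ran from −0.52 to −0.38. For gld-2 against N2 they were 130 to 177. For RNAi they were 6 with DESeq2 and 13 without the filter for panl-2 (0 to 7 with 1 library left out), 1 and 2 for ccf-1, and 0 to 1 for caf-1 with 1 library left out. The X minus II to V median with 1 library left out ran from −0.086 to 0.091 for caf-1, from −0.20 to −0.024 for ccf-1 and from −0.15 to −0.023 for ccr-4. Called members in tail length were 7 with centred lengths and 2 to 11 with 1 library left out for gld-2 against N2, and 6 to 31 for gld-2 against cpb-3. For embryos they were 22 with a mean of 50 tailed reads and 0 to 85 with 1 library left out, with a median difference from −1.28 to 0.17 nt. For ccf-1 RNAi they were 0 with centred lengths and 0 to 12 with 1 library left out. The tail median difference ran from −0.45 to 0.56 nt for parn-1 and from −0.70 to 0.52 nt for caf-1.

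The X share of counts in tailed reads was 14.05% in N2, 13.7% in cpb-3, 13.6% in control RNAi and 13.3% in parn-1 RNAi. Without the 5 rows with most counts in each set it was 12.26% in N2, 10.83% in gld-2, 12.4% in cpb-3, 11.1% in control, 11.03% in parn-1, 10.2% in panl-2, 10.8% in ccf-1, 10.4% in ccr-4 RNAi and 9.49% in embryos.

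Replicate numbers were not taken to pair libraries in the main fits. Deviations of same-numbered libraries from their group means correlated from −0.24 to 0.23 in run 1 and from −0.17 to 0.41 in run 2. In run 2 only the pair of caf-1 and panl-2 RNAi was negative. Whether same-numbered RNAi libraries share an effect was not tested. With a replicate block, called members were 88 in expression for embryos and 6 in tail length for gld-2 against N2. Depth limits what tails and RNAi groups of 2 libraries can show.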
